A study of Homo sapiens with 6 samples.

Results

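The 63 genes described here encode the core autophagy machinery, the cathepsins, the subunits of the lysosomal proton pump and the lysosome-associated membrane proteins. They are the genes whose array name begins with ATG, ATP6V, GABARAP, MAP1LC3 or LAMP, those named CTS and a letter, and SQSTM1, BECN1, TFEB and ULK1. They were read by 94 of the 41000 probes of the array and are 63 of 17063 named genes. The rule goes by name and uses no signal value, but it was set with earlier results of these data known. Their roles divide them into 23 autophagy genes, 22 pump subunits, 14 cathepsins and 3 LAMP genes, with TFEB beside them.

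RNA was measured in HepG2, an established human hepatoma cell line, on 6 one-colour Agilent arrays. The 5 extract arrays held cells given Scutellaria baicalensis extract at 100 µg/ml for 1, 3, 6, 12 and 24 h, and 1 array held control cells. The labels give no time or vehicle for the control, which is placed at 0 h by assumption, and all 6 cultures shared the same line and medium. Each group is 1 array of a single dish or culture as far as the labels say, and differences at the single times therefore carry no p-value.

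Autophagy encloses cytoplasm in a membrane that fuses with the lysosome. The ULK1 kinase and the Beclin-1 lipid kinase complex start the membrane, the ATG7, ATG3, ATG10, ATG12, ATG5 and ATG16L1 proteins attach LC3 and GABARAP proteins to its lipid, and receptors such as p62, the product of SQSTM1, bind cargo to them. In the lysosome the V-ATPase pumps protons, with a V1 sector that splits ATP and a membrane V0 sector that carries the protons, and the acid pH lets cathepsins digest the cargo. TFEB is a transcription factor known to bind an E-box, CACGTG, in front of many such genes. The liver relies on this route to recycle proteins, organelles and lipid droplets.

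Values are log2 of the processed signal minus the log2 75th percentile of the same array, called scaled signal below. A gene is represented by its brightest probe, the one with the highest mean over the 6 arrays, and levels of different probes are not compared with each other. Differences are log2 extract minus control, and a gene counts as measured at a time where its probe exceeded background clearly, and was unsaturated, on the array of that time and on the control array. The error of a difference, estimated from genes with a pair of measured probes, was an SD of 0.35, 0.45, 0.77, 0.68 and 0.69 at 1, 3, 6, 12 and 24 h. Variation from culture to culture and array to array is not part of this error.

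Array brightness touches every value at 6 h and 12 h, since the 75th percentile of the signal was 153 and 420 units there and between 768 (control cells) and 1900 (3 h) elsewhere. The share of probes well above background was lowest at 6 h, at 49.5%, and lay between 64.4% and 73.3% on the other 5 arrays. Member genes with a probe well above background numbered 46 at 6 h and 53 to 57 elsewhere. Markers fixed for hepatocytes were all 9 well above background on all 6 arrays. Among 9 blood-cell markers, 4 to 7 were well above background on an array, CD163 on none and PTPRC at 12 h alone. Of 6 fibroblast and osteoclast markers 2 to 5 were well above background, and COL1A1 was on no array. In RNA from a whole culture, fewer cells of a kind and less RNA per cell cannot be told apart.

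Several member genes were read by more than 1 probe, and the first 30 bases of the 60-base probes for the genes where this bears most on the values are given here, in lower case with nothing marked. They were chosen after their values were seen. The probes of MAP1LC3B, which encodes the LC3B protein and lies on chromosome 16, are those that disagreed most at 6 h. The pair for ATG12 on chromosome 5 gave parallel values. The LAMP2 probes, from the X chromosome, are listed for different transcripts of the gene.
MAP1LC3B A_32_P220715: aaagggatgttaccaactgagatcgatcag
MAP1LC3B A_24_P108005: tgtgtgtttagatgtgtatgaaatacctgt
MAP1LC3B A_23_P77630: aaagagtggcatttctcctgtttcaggttt
ATG12 A_23_P20970: ttgatgcttgtggcaagagacttaacagat
ATG12 A_23_P18901: tgaaaacaaagaagtgggcagtagagcgaa
LAMP2 A_23_P217447: taaaacctgttctctttaatcagcttaaaa
LAMP2 A_23_P416608: tgcctcccattcactagaaaatgagaaaat

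As a group the autophagy and lysosome genes stayed close to the rest of the array at every time, and a few single genes stood apart. The median member difference was -0.08, 0.01, 0.23, 0.25 and 0.05 at 1, 3, 6, 12 and 24 h, against -0.06, -0.05, 0.35, 0.21 and 0.01 for all measured genes. These medians cover the measured members alone, 46 of the 63 at 6 h and 52 to 54 at the other times; 6 members were well above background on no array. Members above the median of all genes numbered 26 of 54, 28 of 53, 22 of 46, 28 of 52 and 29 of 54 at these times. The member differences were spread no more widely than those of all genes, with an SD of 0.77 against 1.00 at 6 h and 0.75 against 0.77 at 24 h.

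Counts of members at least 2-fold apart from the control were read against the same count over all genes. At 1 h, 2 of 54 members (3.7%) exceeded the control at least 2-fold and 0 lay as far below it, beside 2.25% higher and 0.661% lower of 12854 genes. At 3 h none was that much higher and 1 of 53 was lower, beside 3.06% and 3.12% of 12775 genes. At 6 h, 8 of 46 members (17.4%) were higher and 1 lower, beside 23.3% and 10% of 10454 genes. In these main values the shares at 6 h were below those of all genes. At 12 h, 7 of 52 (13.5%) were higher and 0 lower, beside 12.6% and 8.07% of 12293 genes. At 24 h, 4 of 54 (7.41%) were higher and 1 lower, beside 6.98% and 9.61% of 12772 genes. The members' share of higher genes was thus near the background at 12 h and 24 h.

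The 6 h split depended on the background correction and on the scaling. With the normexp correction the 46 members held 6 that exceeded the control by 2-fold or more at 6 h and 12 that lay as far below it, against 8 and 1 in the main values. All genes with normexp had 23.1% higher and 13.6% lower, so the members' share of lower genes was then above that of all genes. After quantile normalization 5 members were higher and 2 lower at 6 h, and with each time centred on all genes 4 and 5. The median of all genes at 6 h was 0.05 with normexp, against 0.35 in the main values and 0.15 after quantile normalization. At 12 h it was 0.40 with normexp and 0.12 after quantile normalization, against 0.21.

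**Figure D1:**
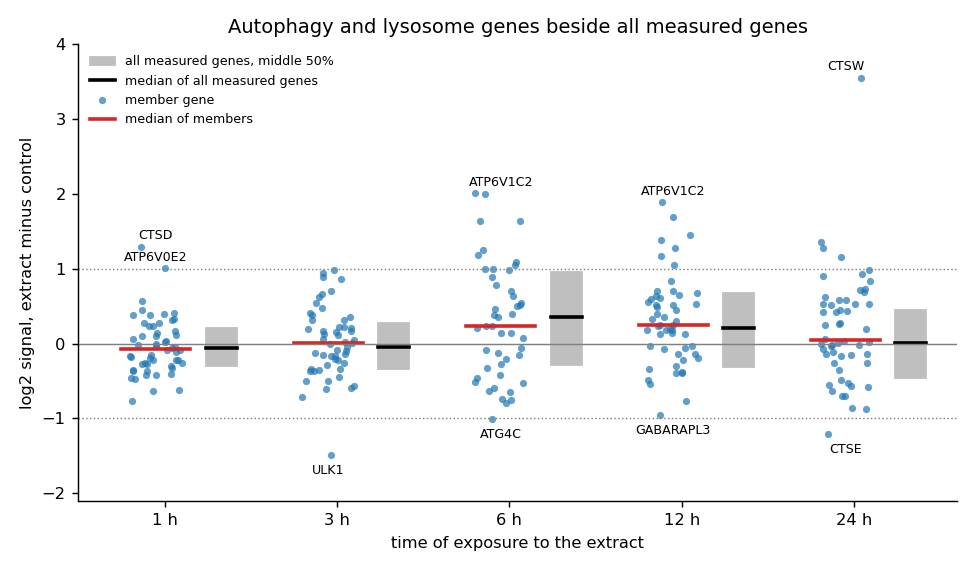
Log2 signal of extract minus control (vertical axis) for each member gene (blue points) at 1, 3, 6, 12 and 24 h, with the members' median (red) beside the median and middle 50% of all measured genes (black line and grey box). The medians lie close at every time, 0.23 for members and 0.35 for all genes at 6 h, and single genes such as CTSW at 24 h and ATP6V1C2 at 6 h lie far out.

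A line over the 6 arrays on log2(hours + 1) was the test the design allowed, fitted with limma across 13330 genes that were well above background on at least 3 arrays. None of these genes passed an adjusted p of 0.05 (0 of 13330, 0%), and none of the 57 members tested did; the smallest adjusted p was 0.225 over all genes and 0.360 over the members. At an unadjusted p under 0.05, 3 members (5.26%) had a rising line and 0 a falling one, beside 3.63% rising and 6.14% falling of all genes. The line sloped upward in 36 of the 57 members (63.2%), beside 59.2% of all genes. The median fitted log2 change over 24 h was 0.14 for the members and 0.17 for all genes. The residual, with 4 degrees of freedom, is scatter about a line and not a spread between replicates.

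The smallest p-values belonged to a pump subunit and to cathepsins. ATP6V1E1, the E subunit of the V1 stalk, had a fitted log2 change of 1.47 ± 0.44 (SE, n = 6 arrays) with a limma p of 0.0103 and an adjusted p of 0.360. CTSL, which encodes the cysteine protease cathepsin L, had a fitted change of 1.17 ± 0.42 with a limma p of 0.0232 and an adjusted p of 0.437. CTSG, a serine protease of neutrophil granules, had 1.44 ± 0.55 with a limma p of 0.0320 and an adjusted p of 0.455, but its probe was not clearly above background in control cells or at 6 h. ATG3, CTSS and GABARAPL1 followed, with adjusted p-values of 0.515, 0.541 and 0.551 in limma. The lowest p among falling lines was that of LAMP3, with a limma adjusted p of 0.609 and a fitted change of -0.85 ± 0.50. CTSE, ATP6V1A, ATG16L1, ATP6V1B2 and CTSF came after it, with fitted changes of -0.76, -0.43, -0.58, -0.56 and -0.53. The second probes of ATP6V1A and ATG16L1, given below, had other differences at 24 h.

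**Figure D2:**
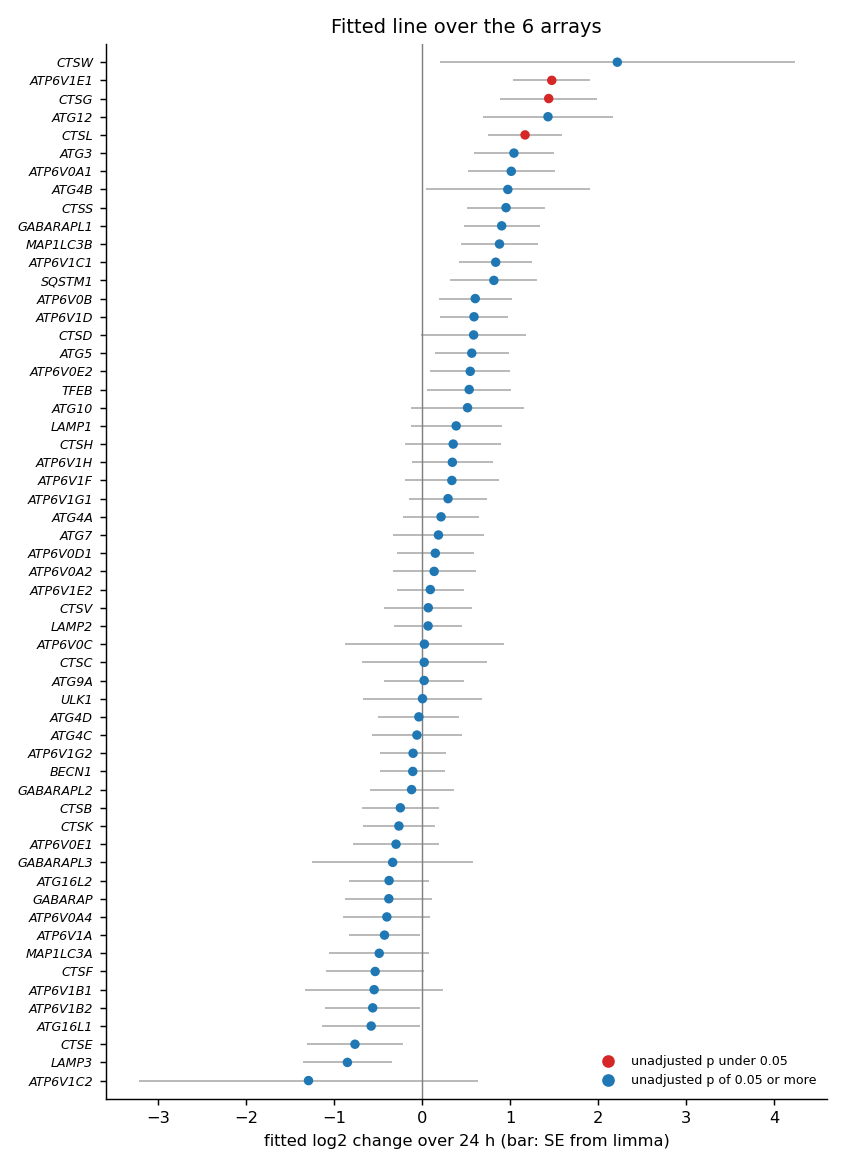
Fitted log2 change over 24 h (horizontal axis) with its SE for the 57 members in the line fit, ordered by size, with unadjusted p under 0.05 in red. The red points are ATP6V1E1, CTSL and CTSG, and CTSW and ATP6V1C2 have the widest error bars.

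The genes that start the autophagosome were led by ULK1, whose product is the kinase that nutrient signals switch on and off. ULK1 had scaled signals of 3.45 in control cells and 2.83, 1.96, 2.71, 3.63 and 2.90 at 1, 3, 6, 12 and 24 h. It was lowest at 3 h, at 0.355 times the control, a log2 difference of -1.49 against an error of 0.45, and its 12 h value was slightly above the control. The second probe of ULK1 had 0.99 in control cells and 0.85, -0.11, -0.17, 0.98 and 0.96 at the same times, so it too was low at 3 h, as well as at 6 h, and near the control level at 12 h. Among the 53 members measured at 3 h, ULK1 was the only 1 at least 2-fold lower in the main values. Its 3 h difference lay between -1.49 and -1.30 under the 4 alternatives run for it. CTSW, not well above background at 3 h, was at least 2.36-fold lower by its brightest probe.

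BECN1, which encodes the scaffold Beclin-1, was flat by its brightest probe. Its scaled signal was 2.73 in control cells and 2.57, 2.74, 2.53, 2.51 and 2.66 at the 5 times. The other probes of BECN1 had 1.49 and 0.07 in control cells, 0.61 and -0.58 at 12 h, and 1.74 and 1.02 at 24 h, so they were lower on the dim 12 h array and higher at 24 h. ATG9A, which encodes the membrane protein that supplies lipid, was highest at 1 h, with a difference of 0.57. ATG9B was not well above background on any array.

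Apart from ATG4B, the largest differences among the autophagy genes were those of conjugation genes, and they lay at 6 h and 12 h. ATG12, whose product is the ubiquitin-like protein joined to ATG5, had scaled signals of 1.09 in control cells and 0.76, 1.26, 2.72, 2.77 and 1.60 at 1, 3, 6, 12 and 24 h. It was high at 6 h and 12 h, 3.11-fold and 3.22-fold above the control, and at 24 h it was 1.43-fold above. The second ATG12 probe ran parallel, with 0.07 in control cells and -0.04, 0.69, 2.14, 2.37 and 1.26 at the same times. Its 24 h difference was larger, at 1.19 against 0.51. The 12 h difference of 1.69 was 1.37 with normexp, and the 6 h difference of 1.64 was 0.40.

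ATG3, the E2-type enzyme that attaches LC3 to lipid, was above the control on all 5 extract arrays, with differences of 0.38, 0.86, 1.18, 1.28 and 0.83. All 5 differences rest on the single control array. They came from the brightest ATG3 probe alone, because the other was near background and not well above it at 6 h and 12 h. With normexp the 6 h difference was 0.24, and with the probes averaged the 12 h difference was 0.26. ATG10, the E2-type enzyme that joins ATG12 to ATG5, was 3.10-fold above the control at 6 h and 1.28-fold at 12 h; its second probe was not well above background at 6 h. The ATG10 differences of 1.63 and 0.36 at these times were 2.64 and 1.36 with normexp, and the 6 h one was 0.44 with the probes averaged. ATG16L1, the scaffold that places LC3 conjugation, had differences of 0.14, 0.70, -0.63, -0.54 and -0.17 by its brightest probe. Its dimmer second probe had 1.46, 2.35 and 1.47 at 1, 3 and 24 h and was not well above background at 6 h and 12 h. At 6 h 3 of the 7 conjugation genes were at least 2-fold higher, at 12 h 2 of 7 and at 24 h 0 of 7, beside 23.3%, 12.6% and 6.98% of all genes. Their median at 24 h was 0.51.

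ATG4 proteases trim LC3 and GABARAP before conjugation and release them afterwards. ATG4B had scaled signals of 1.91 in control cells and 1.75, 1.69, 3.90, 3.36 and 1.89 at 1, 3, 6, 12 and 24 h by its brightest probe, which put it 3.99-fold and 2.74-fold above the control at 6 h and 12 h. Its other probe had 0.98 in control cells and 1.58, 1.47, 1.49, 1.50 and 1.93 at these times, highest at 24 h, so the probes placed the maximum at different times. With normexp the 6 h log2 difference was 0.62, under 2-fold. With the probes averaged the log2 differences were 1.26 at 6 h and 0.99 at 12 h. ATG4C was the lowest member at 6 h, with a difference of -1.01 against an error of 0.77; with normexp that difference was 0.66, on the other side of 0. ATG4C was also among the 4 lowest members at 1, 3 and 12 h, with -0.77, -0.60 and -0.48.

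The 7 LC3 and GABARAP genes encode the ubiquitin-like proteins that coat the autophagosome, and none was 2-fold apart from the control by its brightest probe at a time when it was measured. MAP1LC3C was measured at no time and MAP1LC3A and GABARAPL3 not at 6 h, where GABARAPL3 was at least 1.75-fold lower. MAP1LC3B had scaled signals of 2.91 in control cells and 2.43, 2.91, 3.42, 3.44 and 3.44 at 1, 3, 6, 12 and 24 h by its brightest probe. The probe A_24_P108005 had 2.69 in control cells and 2.59, 2.75, 1.23, 2.37 and 3.18, and the probe A_23_P77630 had 2.31 and then 2.02, 2.19, -0.42, 0.97 and 2.93. The 3 probes thus differed at 6 h, where 1 was above the control and the others below, and all 3 were above the control at 24 h. Their differences at 6 h spanned 3.24 on the log2 scale, the widest span among 17 members with more than 1 measured probe, whose median span was 0.88.

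GABARAPL1 was the highest of this family at 24 h, at 1.87-fold the control. Its scaled signal was -0.12 in control cells and -0.39, -0.26, 0.03, 0.12 and 0.79 at 1, 3, 6, 12 and 24 h, and its second probe had -1.88 in control cells and -1.63, -1.62, -2.38, -2.00 and -0.46. Both probes were highest at 24 h. GABARAP had differences of 0.45, 0.38, -0.60, -0.14 and 0.00 and GABARAPL2 of -0.41, -0.34, 0.24, 0.13 and -0.58. GABARAPL3, whose sequence is close to that of GABARAPL1 so that a probe of either may bind RNA of both, was -0.95 at 12 h and, with normexp, 0.55. MAP1LC3A was -0.87 at 24 h, with a dim signal on all arrays, and MAP1LC3C was not well above background on any.

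SQSTM1, which encodes the p62 receptor and is also a known target of the NRF2 oxidative stress factor, stood out at 24 h. Its scaled signal was 3.51 in control cells and 3.84, 4.05, 3.65, 3.70 and 4.79 at 1, 3, 6, 12 and 24 h. All 5 extract values were above the control, by 0.33, 0.54, 0.14, 0.19 and 1.28, the last a 2.43-fold difference. Each of these differences rests on the single control array. The 24 h difference lay between 1.28 and 1.45 under the alternatives run for it, and its error was 0.69. The limma line had a fitted change of 0.82 ± 0.49 and an adjusted p of 0.614.

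TFEB, the transcription factor of lysosome genes, had scaled signals of 0.36 in control cells and 0.60, -0.14, 0.75, 0.88 and 0.79 at 1, 3, 6, 12 and 24 h. Its differences of 0.24, -0.49, 0.39, 0.52 and 0.43 were each close to or under 1 error. Its RNA level does not measure where the protein is in the cell. TFEB binds CACGTG, and this sequence, which reads the same on both strands, was searched in the RefSeq promoter windows of GRCh38.p14 from 250 bases before to 50 after each gene start. Promoters were found for 46 members, and 8 of those genes (17.4%) had a match, beside 8.77% of 27305 genes. The longer TCACGTGA, which contains it, was in 4 of the 46 (8.7%), beside 1.18% of all genes.

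The promoters of CTSD, ATG3 and ATP6V1G1 are shown because these genes cover a protease, a conjugation enzyme and a pump subunit with a match; they were chosen after values were seen. CACGTG is in capitals. CTSD lies on chromosome 11 (chr11:1763878-1764177, minus strand), ATG3 on chromosome 3 (chr3:112561913-112562212, minus strand) and ATP6V1G1 on chromosome 9 (chr9:114587519-114587818, plus strand).
CTSD: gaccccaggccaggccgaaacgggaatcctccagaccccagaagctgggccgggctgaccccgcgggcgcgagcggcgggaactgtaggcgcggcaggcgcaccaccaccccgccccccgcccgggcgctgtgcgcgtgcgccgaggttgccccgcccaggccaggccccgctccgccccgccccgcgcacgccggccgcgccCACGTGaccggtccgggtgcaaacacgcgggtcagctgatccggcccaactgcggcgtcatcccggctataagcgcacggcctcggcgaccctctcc
ATG3: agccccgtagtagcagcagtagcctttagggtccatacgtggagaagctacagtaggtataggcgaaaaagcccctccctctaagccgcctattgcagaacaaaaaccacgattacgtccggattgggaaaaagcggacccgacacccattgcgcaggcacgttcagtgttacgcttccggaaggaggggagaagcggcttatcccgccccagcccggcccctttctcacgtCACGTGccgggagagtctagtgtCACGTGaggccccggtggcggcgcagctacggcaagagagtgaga
ATP6V1G1: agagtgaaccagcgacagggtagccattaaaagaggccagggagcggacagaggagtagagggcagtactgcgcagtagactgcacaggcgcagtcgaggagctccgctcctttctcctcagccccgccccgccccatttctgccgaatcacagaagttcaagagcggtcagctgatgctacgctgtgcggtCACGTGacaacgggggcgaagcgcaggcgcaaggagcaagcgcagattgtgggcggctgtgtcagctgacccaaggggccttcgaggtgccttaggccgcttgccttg
The 8 genes with a match were ATG3, ATP6V0B, ATP6V0D1, ATP6V0E2, ATP6V1G1, CTSD, CTSF and LAMP1. Their differences at 24 h ran from -0.26 to 1.36 with a median of 0.50, beside 0.05 for all measured members. The 4 with TCACGTGA ran from -0.12 to 0.83 with a median of 0.24. A match is a description of these letters and not a measured binding site.

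**Figure D3:**
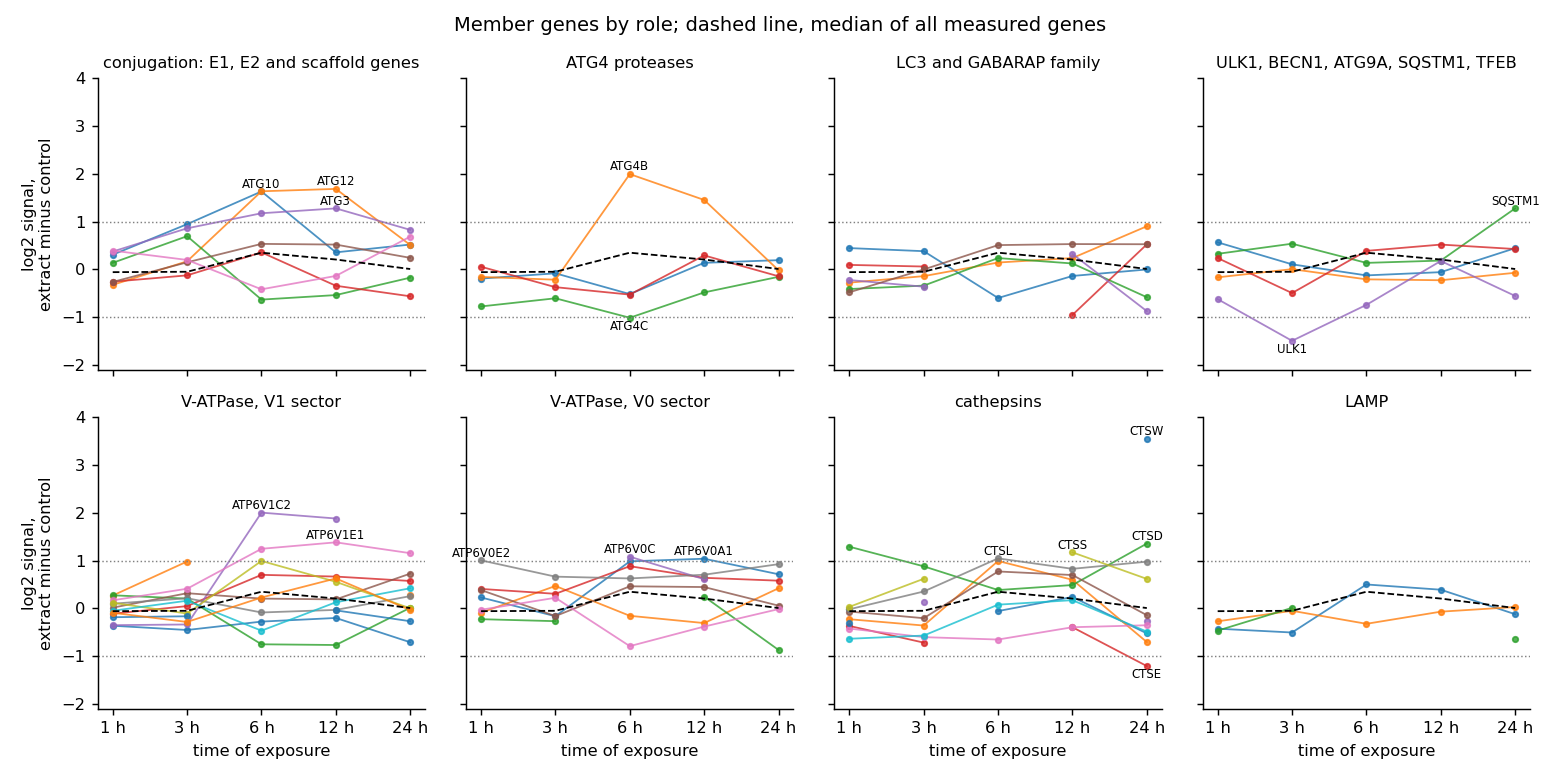
Log2 signal of extract minus control (vertical axis) at 1, 3, 6, 12 and 24 h (horizontal axis), 1 line per measured member gene, in 8 panels by role, with the median of all measured genes dashed and names at the largest value of genes at least 2-fold apart. The conjugation and ATG4 panels hold peaks at 6 h and 12 h, whereas SQSTM1, CTSD and CTSW are highest at 24 h.

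The V-ATPase has 22 member genes, 13 of the V1 and 9 of the V0 sector. At 24 h 1 of the 18 measured subunits was at least 2-fold higher and 0 lower, beside 6.98% and 9.61% of all genes, with a median of 0.27 against 0.01 for all genes. At 6 h and 12 h, 3 of 17 and 3 of 19 were that much higher and 0 lower. Over all genes 23.3% and 12.6% were higher and 10% and 8.07% lower at these times. The medians were 0.46 and 0.45 against 0.35 and 0.21. The 3 at 6 h include ATP6V0C, whose second probe was below the control there. The V0 subunits had a higher median than the V1 subunits at each of the 5 times, for example 0.42 against 0.26 at 24 h and 0.63 against 0.22 at 6 h; this difference was not tested.

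In the V1 sector, ATP6V1E1 had scaled signals of -0.12 in control cells and 0.05, 0.29, 1.13, 1.27 and 1.04 at 1, 3, 6, 12 and 24 h. It was 2.38-fold, 2.61-fold and 2.23-fold above the control at 6, 12 and 24 h. By brightest probes it was the only member at least 2-fold higher at all 3 of these times. The second ATG12 probe was also at least 2-fold higher at all 3, with 2.07, 2.30 and 1.19. The 24 h difference of 1.16 lay between 1.14 and 1.20 under the alternatives run for it, while the 6 h difference of 1.25 was 0.51 with normexp.

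ATP6V1C2, a C subunit known from kidney and lung, was high on the dim 6 h and 12 h arrays and low at 24 h. Its brightest probe had scaled signals of -2.87 in control cells and -3.22, -3.21, -0.86 and -0.99 at 1, 3, 6 and 12 h. At 24 h it was not well above background and at least 11.7-fold lower than the control. The gene was thus 4.02-fold above the control at 6 h, the highest of all members at that time, and below it at 24 h. The other ATP6V1C2 probe was near or below background on every array and does not check either value; with the probes averaged the differences at 6 h and 12 h were 1.17 and 0.73, against 2.01 and 1.88. Without the 6 h and 12 h arrays, limma called 4.57% of genes and 1 member, ATP6V1C2, with a fitted change of -3.66 ± 0.54 and an adjusted p of 0.0109, which rests on the 24 h array where the probe was not well above background.

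Other V1 subunits differed less. ATP6V1B2, part of the catalytic head, was -0.75 and -0.76 at 6 h and 12 h and 0.01 at 24 h. ATP6V1A, the catalytic subunit itself, was -0.71 at 24 h by its brightest probe and -0.04 by its second, which was well above background on every array. ATP6V1B1, the kidney form of the B subunit, was 0.98 at 3 h from a signal close to background. ATP6V1G3, a kidney form of the G subunit, was not well above background on any array.

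In the V0 sector, ATP6V0E2 was 2.01-fold above the control at 1 h, with differences of 1.01, 0.67, 0.63, 0.71 and 0.93 at the 5 times. It was thus above the control throughout, but all 5 differences rest on the single control array. ATP6V0E1, the other e subunit, was -0.79 at 6 h and between -0.38 and 0.22 at the other times by its brightest probe. Its second probe differed, with 0.29, -0.45, 0.88, 1.30 and -1.21 at 1, 3, 6, 12 and 24 h. ATP6V0C, which encodes the ring that carries protons, was saturated by its brightest probe at 1, 3 and 24 h, so only its 6 h and 12 h differences, 1.08 and 0.61, can be read. Its second probe was never saturated and had 2.93 in control cells and 3.40, 2.99, 2.65, 2.58 and 2.92 at 1, 3, 6, 12 and 24 h, which is below the control at 6 h and 12 h. ATP6V0A4, a kidney form of the a subunit, was -0.87 at 24 h, and ATP6V0D2, known from osteoclasts, was not well above background on any array.

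By their brightest probes, 11 of the 14 cathepsins were measured at 24 h, with a median of -0.26 against 0.01 for all genes. Of these, 2 were at least 2-fold higher and 1 lower, beside 6.98% and 9.61% of all genes. For some genes the sign depended on the probe. At 24 h CTSB was -0.52 by its brightest probe and -0.29 and 1.43 by the others, and CTSC was -0.70 by its brightest and 1.20 by its other. CTSD, the aspartic protease cathepsin D, had scaled signals of -0.68 in control cells and 0.62, 0.20, -0.29, -0.19 and 0.68 at 1, 3, 6, 12 and 24 h. It was above the control on all 5 extract arrays, 2.45-fold at 1 h and 2.57-fold at 24 h, and least so on the dim 6 h and 12 h arrays. The control value was the lowest of the 6, so each of these differences rests on that single array. Under the alternatives run, CTSD lay between 1.22 and 1.33 at 1 h and between 1.28 and 1.39 at 24 h.

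CTSE, an aspartic cathepsin best known from the stomach and blood cells, was 0.434 times the control at 24 h, with a difference of -1.21. With all its probes averaged that difference was -0.80. With normexp, and after quantile normalization, it was under 2-fold, as 0 members were at least 2-fold lower at 24 h. The probe was dim, with scaled signals of -3.57 in control cells and -4.77 at 24 h.

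Among the cysteine cathepsins, CTSL had scaled signals of 2.52 in control cells and 2.50, 2.87, 3.56, 3.35 and 3.50 at 1, 3, 6, 12 and 24 h. It was 2.07-fold and 1.97-fold above the control at 6 h and 24 h, but its 6 h difference of 1.05 was -0.33 with normexp, and the 24 h one of 0.98 was 0.88. CTSB, which encodes the abundant cathepsin B, had 5.44 in control cells and 5.44, 5.39, 5.68 and 4.92 at 1, 6, 12 and 24 h and was saturated at 3 h. Of its other probes, A_24_P303770 had 1.26 in control cells and 2.60, 2.79, 1.13, 1.24 and 2.69 at 1, 3, 6, 12 and 24 h, high on the 3 brightest arrays alone. CTSV, close in sequence to CTSL, was -0.63 at 1 h, and CTSK, the main collagenase of osteoclasts, was -0.60 at 3 h.

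Cathepsins of blood cells were dim. CTSW, known from natural killer and T cells, had a scaled signal of -1.69 at 24 h against -5.24 in control cells, a difference of 3.55 and the largest of all members at that time. At 3, 6 and 12 h the same probe was not well above background, and at 3 h it was at least 2.36-fold lower than the control. The other CTSW probe was not well above background at 24 h, so 1 probe on 1 array carries the 24 h value. With normexp it was 1.66 and with both probes averaged 1.80. Among the blood-cell markers CD3E, the T-cell receptor chain, was -1.67 at 24 h and PTPRC was not well above background. The summed signal of the 9 markers was 1.91 at 24 h against 4.11 in control cells, in units of the array's 75th percentile. Most of this sum is CD79A, a B-cell marker with scaled signals of 1.42 in control cells and 0.03 at 24 h. The sum therefore does not describe natural killer or T cells, and the source of the CTSW signal was not tested.

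CTSG was not well above background in control cells and was at least 1.44-fold, 2.04-fold, 3.10-fold and 1.94-fold higher at 1, 3, 12 and 24 h. MPO, a neutrophil granule marker like CTSG, was well above background at 24 h alone. CTSS, known from antigen-presenting cells, was 2.26-fold above the control at 12 h and 1.54-fold at 24 h, by a probe with a dim scaled signal of -4.67 in control cells; its other probe was not well above background on any array. CTSF was near background throughout, and CTSO and CTSZ were not well above background on any array.

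LAMP1 and LAMP2 encode the main glycoproteins of the lysosomal membrane, and LAMP3 is an inducible form that is dim here. None was 2-fold apart from the control by its brightest probe where measured. The LAMP1 pair disagreed in sign on every extract array except that of 12 h. In time order A_23_P162846, the brightest, lay at -0.42, -0.50, 0.50, 0.39 and -0.12 relative to control cells. The dimmer A_24_P304549 lay at 0.47, 0.61, -0.38, 0.14 and 1.27, so it alone exceeded 2-fold, on the 24 h array. It was well above background and unsaturated on all 6 arrays. LAMP2 had scaled signals of 1.69 in control cells and 1.42, 1.64, 1.36, 1.62 and 1.72 at 1, 3, 6, 12 and 24 h. The probe A_23_P416608, whose start is printed above, had 1.73 in control cells and 1.00, 0.78, -0.63, 0.16 and 1.35. Against its own control value this probe was at -2.36 at 6 h and the other at -0.32, and at 24 h they were at -0.38 and 0.03. LAMP3 was not well above background at 6 h and 12 h, and -0.63 at 24 h.

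**Figure D4:**
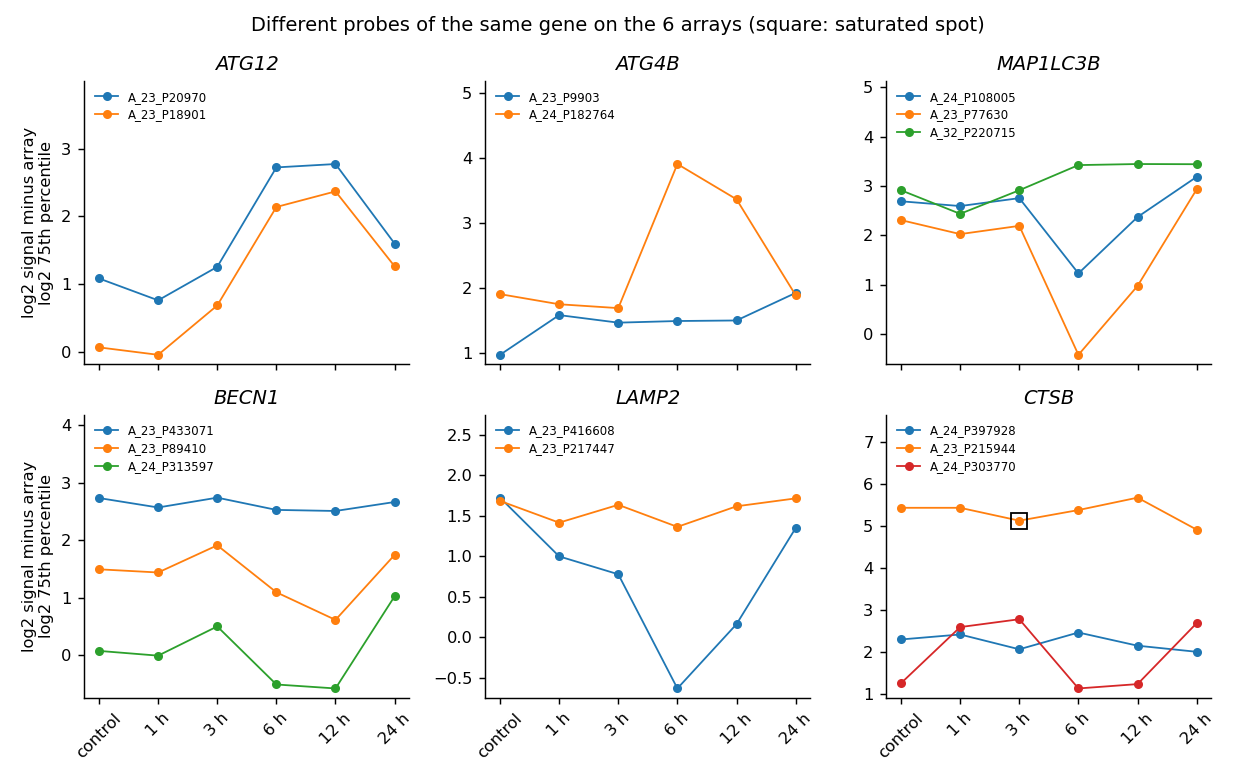
Scaled log2 signal (vertical axis) of each probe of ATG12, ATG4B, MAP1LC3B, BECN1, LAMP2 and CTSB in control cells and at 1, 3, 6, 12 and 24 h, with saturated spots squared. The ATG12 probes follow each other, with 2.72 and 2.14 at 6 h, and the MAP1LC3B probes part at 6 h, with 3.42, 1.23 and -0.42.

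The 75th percentile of the signal was 1640 on the 24 h array, against 768 in control cells. The error of a difference was 0.69, against 0.68 at 12 h. Of the 63 members, 54 were measured at 24 h, and ATP6V0C was saturated by its brightest probe. By their brightest probes CTSW, CTSD, SQSTM1 and ATP6V1E1 were at least 2-fold higher, and CTSL, ATP6V0E2 and GABARAPL1 came next with 0.98, 0.93 and 0.90. By another measured probe, GABARAPL1, ATG12, ATG16L1, LAMP1, CTSB and CTSC were also at least 2-fold higher, and ATP6V0E1 was at least 2-fold lower. CTSE, MAP1LC3A, ATP6V0A4 and ATP6V1A were lowest by their brightest probes, with -1.21, -0.87, -0.87 and -0.71. The second ATP6V1A probe was at -0.04. The 25th and 75th percentiles of the members were -0.24 and 0.56, beside -0.45 and 0.44 over all genes.

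**Figure D5:**
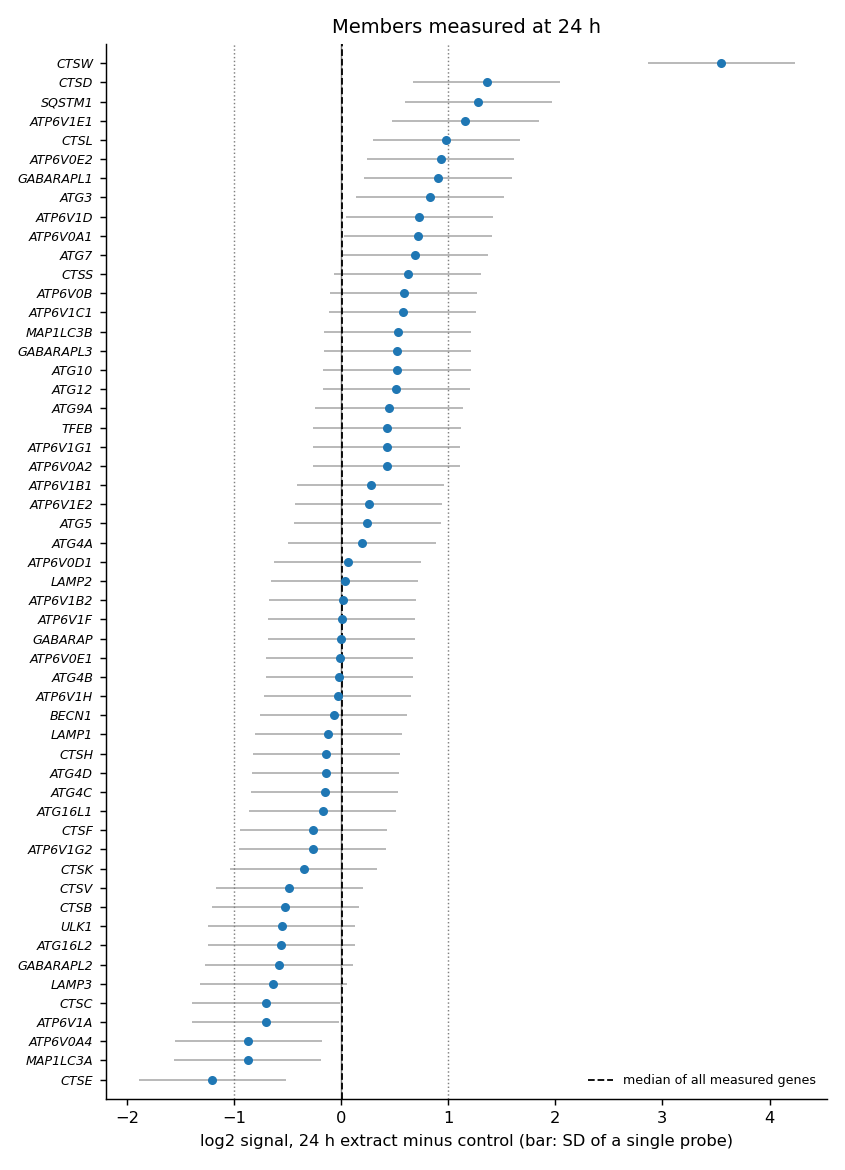
Log2 signal of 24 h extract minus control (horizontal axis) for the 54 members measured at 24 h, ordered by value, with the single-probe SD as error bar and the median of all genes dashed. CTSW at 3.55 stands apart, and most other members lie between -1 and 1.

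Genes outside the name rule were taken from 9 lists of the same pathways. Not one gene of these lists passed the adjusted limma test. The counts at 24 h that follow stand beside 6.98% of all genes at least 2-fold higher and 9.61% lower. The receptors other than SQSTM1 had a median difference of 0.52 at 24 h against 0.01 for all genes, and 3 of 12 were at least 2-fold higher. These were FKBP8 and TOLLIP, which bind mitochondria and ubiquitin, and NCOA4, which brings ferritin to the lysosome, with 1.31, 1.24 and 1.08.

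Autophagosome partners, of which 3 of 23 were higher and 3 lower at 24 h, had a median of 0.05. TP53INP1, a p53 target whose product binds LC3, was -2.09, VMP1, a membrane protein of the endoplasmic reticulum, was 1.11, and WIPI2, which binds the young membrane, was -1.04. The list of TFEB's relatives and partners had a median of 0.28 at 24 h with 0 of 6 higher and 1 lower. At 3, 6 and 12 h its median over 5 measured genes was -0.44, -1.16 and -0.98, against -0.05, 0.35 and 0.21 for all genes. Of this list, FOXO1, a factor that insulin keeps out of the nucleus, was -1.57 at 3 h and -1.42 at 24 h. PPARGC1A was -1.18 and -0.92 at these times, while ZKSCAN3, a repressor of autophagy genes, was 0.68 at 24 h.

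The mTORC1 complex holds TFEB and ULK1 inactive when nutrients are ample. The list of its control genes mixes parts and activators of mTORC1 with its inhibitors, so the median of the list has no single meaning. That median was 0.39 at 24 h, and 1 of 23 genes was at least 2-fold higher. That gene was DDIT4, an mTORC1 inhibitor, with differences of -1.45, -2.16, -0.77, 1.39 and 1.07 at 1, 3, 6, 12 and 24 h. It was below the control at the first 3 times and above it at the others. MTOR and MLST8 had 0.97 and 0.91 at 24 h.

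Among 34 measured lysosomal hydrolases 5 were at least 2-fold higher at 24 h, with a median of 0.26. GALNS, a sulfatase, was 1.48, and LGMN, the asparagine-specific protease that processes cathepsins, was 1.30. Lysosomal membrane and transport genes had 2 of 19 higher and 3 lower and a median of -0.04, with MFSD8 at 1.25, CD164 at -1.24 and LAPTM4A at -1.24. Mannose-6-phosphate sorting genes had 2 of 17 higher and 2 lower and a median of -0.05, with AP1B1 at 1.60, AP3D1 at -1.19 and GGA2 at -1.09.

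Cathepsin inhibitors had 0 of 6 higher and 1 lower at 24 h with a median of -0.23, and CST5 was the lower gene at -1.18, beside SERPINB1 and CSTB at -0.42 and -0.26. Assembly factors of the V-ATPase had 0 of 9 higher and 0 lower at 24 h, with a median of -0.04, and VMA22, VMA21 and ATP6AP2 at -0.28, -0.28 and 0.25.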

How the data were processed

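RNA of HepG2 cells was amplified, labelled and hybridised to 6 Agilent arrays, per the labels' protocols. The extraction text also speaks of mouse liver, and all 6 samples are labelled HepG2. The labels name Cy5, whereas the files hold green-channel columns, per the file headers. The deposited scanner files hold intensity per spot, corrected for background by the scanner software and not normalized between arrays, per the file headers; software version and probe genome build: not given in the sources used here. The authors' deposited value table holds unscaled intensity. Values on the log2 scale were computed here from the deposited intensities.

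Outlier-flagged spots and control spots were left out, spots of a probe averaged, and 40895 of 41000 probes kept. Each array's log2 75th percentile was subtracted. Names came from a RefSeq table of GRCh38.p14; ATP6V0E, ATP6V0E2L and CTSL2 were updated to ATP6V0E1, ATP6V0E2 and CTSV. A gene was its probe with the highest mean. A difference needed clear signal over background in control and extract, and counts left out saturated probes. Where only the control or only the extract was well above background, the bound took the higher of the array's lowest such signal and the probe's own. Slopes were fitted with limma 3.58.1 (R 4.3.3), Benjamini-Hochberg over all genes. The number of arrays, 1 per group, limits precision.

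On simulated data for the slope over 13330 genes, the fit recovered none (0) of 50 genes given a 2-fold change; among genes given 4-fold it recovered 3 of 50, with 8-fold 29 of 50, and with 32-fold 40 of 50. It also called 4 unchanged genes.

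The members and lists were chosen with earlier results of these data known. Named members were ATG12, CTSD, SQSTM1, BECN1, TFEB, ULK1, every LC3 and GABARAP gene, the 4 highest and 4 lowest at each time, the 6 smallest slope p-values in each direction, saturated members and members never above background; other lists gave up to 3 genes with the largest 24 h difference. A gene that this rule names is not reported here. LAMP1, LAMP2, CTSC, and the sequences shown, were picked after values were seen. Alternatives were normexp background correction with an offset of 50, quantile normalization, the deposited value table, the mean over probes, no filter on dim probes, another baseline, centring, other time axes, a quadratic term and left-out arrays.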

Additional observations from a re-analysis of the deposited data

How the results depend on the processing

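No paired analysis was possible because each group holds 1 array. Of 174 recomputed counts and medians 131 stayed close to the main value, and of 616 recomputed differences of named genes 568 moved by less than the single-probe error. Members at least 2-fold apart were 1 at 1 h with the authors' deposited values, against 2; at 3 h 3 with probes averaged, 4 without the filter and 2 after centring, against 1; at 6 h 18 with normexp and 17 without the filter, against 9; and at 12 h 14 without the filter, against 7. The members' median minus that of all genes was -0.40 with normexp and -0.30 without the filter at 6 h, against -0.12; -0.094 with normexp at 12 h, against 0.04; and 0.18 with probes averaged at 24 h, against 0.04. Members passing an adjusted p of 0.05 for the slope numbered 1 without the 6 h and 12 h arrays, against 0. Rising lines at an unadjusted p under 0.05 numbered 1 with normexp, 5 after quantile normalization, 1 on untransformed hours and 7 without the 6 h and 12 h arrays, against 3, and from 1 without the control or the 1 h array to 8 without the 24 h array when each array was left out. Falling lines numbered 4 without the 6 h and 12 h arrays, against 0. The difference at 6 h changed sign with normexp for ATG4C, to 0.66, and CTSL, to -0.33. Slopes per unit of log2(hours + 1) changed sign with normexp for ATP6V1C2 (0.011), CTSE (0.0905), CTSF (0.22) and LAMP3 (0.20), and without the 24 h array for ATP6V1C2, whose slope with each array left out ran from -0.57 without the 12 h array to 0.65. The cause was not tested. Signal over background limits the 6 h array most.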
